A study of Mus musculus with 6 samples.

Results

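The genes described here encode secreted antagonists, ligands and receptors of the bone morphogenetic protein (BMP) and activin pathways in ID8, a line of mouse ovarian surface epithelium used as a model of ovarian cancer. They are 10 of the 53465 genes in the count table: the antagonists and modulators Grem1, Bmper, Fst and Fstl1, the ligand genes Bmp4 and Inhba, the type I receptors Bmpr1a and Acvr1, and the type II receptors Bmpr2 and Acvr2a. They were taken by gene symbol from ligands, antagonists and receptors of these pathways. The set was chosen by someone who had the KO against WT log2 fold changes and counts of these libraries in view, so those values describe the genes and test nothing about them. RNA sequencing was done on 3 libraries labelled KO and 3 labelled WT. The series describes 1 line carrying a guide RNA against Nat10, which encodes the enzyme that acetylates cytidine in RNA, and 1 line carrying a control guide. KO was taken to be the line with the Nat10 guide, which the series calls a knockdown, and WT the line with the control guide. Each group is thus 1 stably transfected line of ID8 cells with no further treatment named, and guide and line cannot be told apart. Replicates are numbered 4 to 6 in each group without word of separate cultures, and p-values therefore reflect only how these libraries vary, which may be technical variation.

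BMPs and activins are dimeric ligands that bring together type I and type II receptor kinases at the cell surface. BMP receptors phosphorylate SMAD1, SMAD5 and SMAD9, and activin receptors phosphorylate SMAD2 and SMAD3; both groups enter the nucleus with SMAD4. Antagonists such as gremlin and follistatin bind the ligands outside the cell and keep them from the receptors. In the ovary, activins and BMPs are known as regulators of follicle growth, and BMP4 has been studied in ovarian surface epithelium and its tumours.

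Grem1, Inhba and Bmper had the lowest unadjusted p of the 10 genes, and the 250 bases before the start of each are shown for their base composition and motifs. The sequences are from RefSeq for GRCm38.p6, the build also called mm10, and read 5′ to 3′ on the strand of the gene. Capitals mark the motifs found on either strand.
Grem1, minus strand, chr2:113758649-113758898: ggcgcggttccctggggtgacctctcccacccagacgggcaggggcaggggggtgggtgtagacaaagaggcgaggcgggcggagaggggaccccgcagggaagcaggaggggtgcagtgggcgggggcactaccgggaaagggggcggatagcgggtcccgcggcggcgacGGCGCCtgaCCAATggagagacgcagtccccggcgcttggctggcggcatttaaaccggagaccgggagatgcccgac
Bmper, plus strand, chr9:23222826-23223075: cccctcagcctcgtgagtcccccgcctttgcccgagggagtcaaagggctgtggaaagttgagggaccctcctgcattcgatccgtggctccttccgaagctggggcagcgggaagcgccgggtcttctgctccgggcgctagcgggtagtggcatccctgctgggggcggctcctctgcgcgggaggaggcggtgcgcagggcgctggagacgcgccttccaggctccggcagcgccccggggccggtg
Inhba, plus strand, chr13:16011601-16011850: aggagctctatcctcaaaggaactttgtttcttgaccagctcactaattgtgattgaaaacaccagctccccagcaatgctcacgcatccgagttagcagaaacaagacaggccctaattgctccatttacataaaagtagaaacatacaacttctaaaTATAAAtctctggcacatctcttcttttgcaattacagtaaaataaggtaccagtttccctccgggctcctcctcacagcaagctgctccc
The motifs searched were GGCGCC (a GC-rich element bound by BMP SMADs), GTCTAGAC (a SMAD palindrome), TGANTCA (AP-1), TGACGTCA (cAMP response element), GGAATG (TEAD), TATAAA and CCAAT, and none of the marked sites overlapped another. The Grem1 window held GGCGCC, found in 9.59% of 32851 windows of that length, and CCAAT, found in 33.8%. TATAAA stood in the Inhba window and in 12.4% of all windows. None of these letters was found in the Bmper window. The windows were 72% G and C for Grem1, 71.6% for Bmper and 43.2% for Inhba, against a median of 52.4% over all windows. RefSeq windows were matched for 9 of the 10 genes, and GGCGCC also stood in those of Bmpr1a and Bmpr2. These matches describe sequence only.

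Total counts ranged from 2234305 to 3126208 in the KO-labelled libraries and from 1687466 to 2148715 in WT libraries. Nat10 mRNA checks the labels poorly: it stood at 106 ± 43.1 CPM in KO-labelled and 112 ± 53.1 CPM in WT libraries (CPM, counts scaled to a common library size, with TMM factors; SD, n = 3 per group). Its log2 difference was -0.07 ± 0.48 (SE), so a lower Nat10 mRNA level was not shown, and every direction below is one between the labels. Of 12 ovarian surface and mesothelial markers, 8 were high enough to test, Krt18, Krt19, Msln and Wt1 among them. edgeR called Krt18 (log2 fold change -1.74) and Krt19 (-0.92) lower and Msln (1.05) higher in KO-labelled libraries. Krt7, Cdh1, Muc16 and Lrrn4 had no count in any KO-labelled library or in WT replicate 6, and 6 to 64 counts over the WT group. The summed level of the list was 4860 to 5662 CPM in KO-labelled and 6342 to 6851 CPM in WT libraries. Summed leukocyte markers reached 1.55 CPM in KO-labelled and 14.5 CPM in WT libraries, and endothelial markers reached 2.17 CPM in KO-labelled and 6 CPM in WT libraries. The fibroblast and smooth muscle list, most of it Dcn, summed to 968 to 1325 CPM in KO-labelled and 756 to 780 CPM in WT libraries, a sum that shows Dcn and not the list. Its other tested gene, Col1a1, lay the other way without overlap, at 0.390, 16.3 and 1.86 CPM in KO-labelled and 73.0, 85.4 and 42.8 CPM in WT libraries (edgeR adjusted p = 0.479, DESeq2 0.0297). Granulosa cell markers summed to 12.7 to 61.2 CPM in KO-labelled and 0 to 90.6 CPM in WT libraries, with Inha, Amh, Cyp19a1, Foxl2 and Fshr at 0 in all 6. The part of these marker differences in the results below was not tested. In bulk RNA, fewer cells with a transcript and less of it per cell cannot be told apart.

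Over the 10 genes, all of which passed the filter on low counts, all 10 had an estimate above 0, against 49% of tested genes, and the median log2 fold change was 1.56, also with Grem1 at its floor. Grem1 and Bmper passed edgeR's adjusted p of 0.05 as higher in KO-labelled libraries (adjusted p = 0.0278 and 0.00989, quasi-likelihood test, Benjamini-Hochberg adjustment across the whole tested set), as did 0.183% of the 8200 tested genes. None of the 10 was called lower, against 0.22% of tested genes, and 0.402% were called in either direction. Inhba followed with an adjusted p of 0.0646 and was the third with an unadjusted p under 0.05, which 2.7% of tested genes had as higher and 6.49% in either direction. DESeq2 called Grem1 and Bmper as well, where its rate of calls was 1.14% higher and 2.5% in either direction, and gave Inhba an adjusted p of 0.115. Groups did not overlap for 5 of the 10, all higher, against 6.94% of tested genes higher and 7.93% lower. Since these differences were known when the genes were taken, the shares are given as a description and nothing is read from them.

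**Figure D1:**
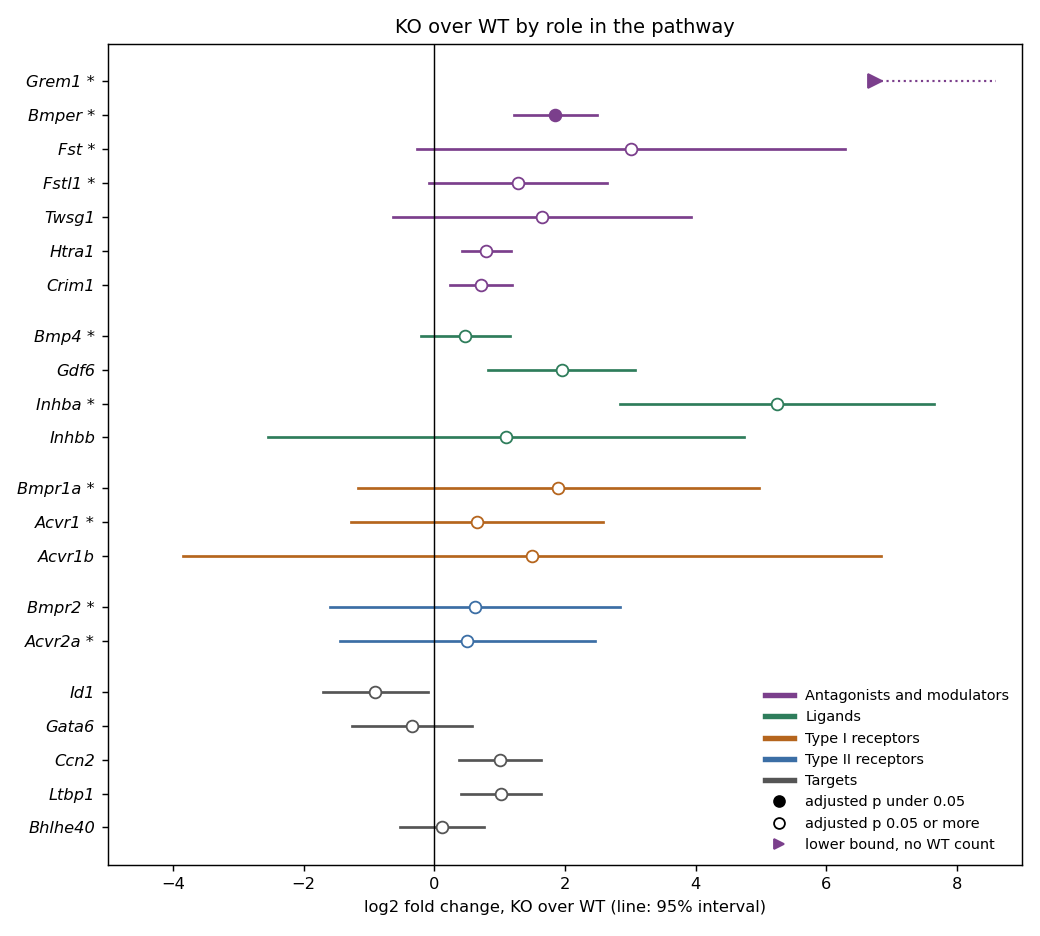
Log2 fold change of libraries labelled KO over WT (x axis) for genes ordered by role, with 95% intervals; asterisks mark the 10 genes, filled points (and Grem1) passed edgeR's adjusted p of 0.05, and Grem1 is drawn as a lower bound of 6.74 because it had no WT count. The antagonist, ligand and receptor estimates drawn lie right of 0. All receptor intervals drawn span 0, as do those of Fst, Fstl1, Twsg1, Bmp4 and Inhbb. Id1 and Gata6 lie left of 0. The tested receptor genes Tgfbr1 and Tgfbr2, the latter at -1.17, are not drawn.

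Grem1 and Bmper, the antagonist genes that edgeR called, had groups that lay fully apart. Grem1 (ENSMUSG00000074934, chromosome 2, 113746164 to 113758646) encodes gremlin 1, which binds BMP2, BMP4 and BMP7. Its reads numbered 206, 167 and 112 in KO-labelled replicates 4, 5 and 6, and 0 in each of the 3 WT libraries. Set against a floor of 3 counts over the WT group, which is 0.558 CPM, its pooled level was 107-fold higher in KO-labelled libraries. That floor covers counting error of the WT zeros only, and the counting interval of the ratio began at 86.7-fold. Zeros were common in these libraries: 24.1% of tested genes had no count in at least 1 KO-labelled library and 19.3% in at least 1 WT library, so a library's 0 does not bound a level by counting error alone. KO-labelled replicate 6, the deepest library, held the fewest Grem1 counts, 34.7 CPM against 80.4 and 71.5 CPM in replicates 4 and 5. With a level of 30 CPM in every library, chosen after the Grem1 values were seen, 2 genes were without any WT count, Grem1 and the glucuronyltransferase gene B3gat3, and 0 genes were without any KO count.

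Bmper (ENSMUSG00000031963, chromosome 9, 23223076 to 23485200) encodes a secreted protein with chordin-like repeats that binds BMPs and, depending on its dose, restrains or promotes their signalling. It stood at 503, 390 and 647 CPM in KO-labelled replicates 4, 5 and 6, and at 196, 119 and 112 CPM in WT replicates 4, 5 and 6. The lowest KO-labelled library was thus above the highest WT library. The log2 fold change was 1.85 ± 0.30 (SE), or 3.60-fold. Bmper also had the smallest fitted spread of the 10 genes, by an estimate that edgeR draws toward genes of a like level. Its measured spread was not the smallest beside its mean. The SD was 46.7 CPM about 143 CPM in WT libraries, against 2.64 about 167 CPM for Bmp4. In KO-labelled libraries it was 129 CPM about 513 CPM, against 7.04 about 39.0 CPM for Acvr2a. The fitted value for Bmper, its biological coefficient of variation (edgeR's estimate of spread beyond counting error), was 0.299, against a median of 0.841 over all tested genes. The mean level of Bmper was 328 CPM, against a median of 36.6 CPM over tested genes. Genes at a like level had a like fitted value, such as Ccn2 (347 CPM, 0.299) and Ltbp1 (318 CPM, 0.297). In RPKM, which is CPM per kilobase of exon and allows genes to be compared, Bmper stood at 106 ± 26.6 in KO-labelled and 29.5 ± 9.66 in WT libraries (SD, n = 3 per group). Bmp4, a ligand it binds, stood at 103 ± 31.7 RPKM in KO-labelled and 74.2 ± 1.17 RPKM in WT libraries. The ratio of Bmper to Bmp4 per length was 0.858, 1.21 and 1.10 in KO-labelled libraries and 0.539, 0.338 and 0.313 in WT libraries, with no overlap. Since the Bmper values were known when the gene was taken, nothing is read from this separation. Grem1 was the rarer of these antagonists, at 15.0 ± 5.83 RPKM in KO-labelled libraries.

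**Figure D2:**
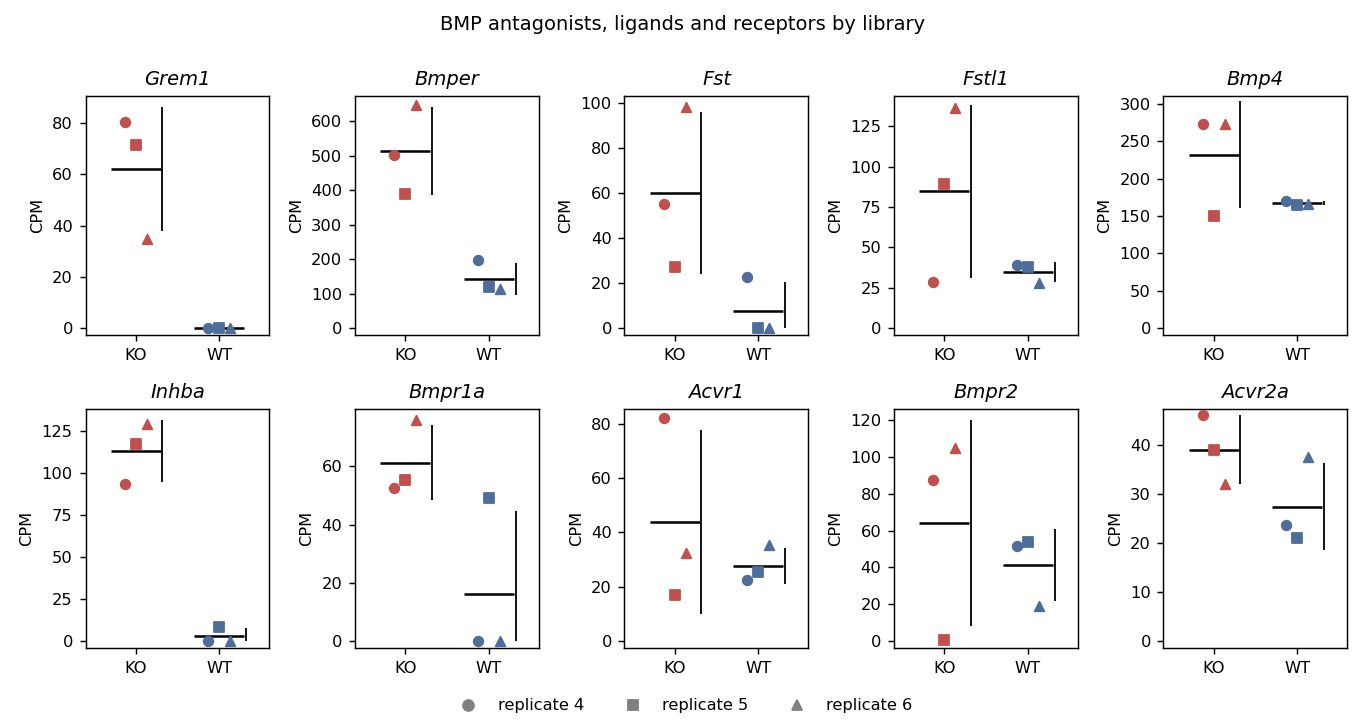
Level of each of the 10 genes in CPM (linear axis) in libraries labelled KO (left, red) and WT (right, blue); symbols are replicates, horizontal bars the group mean and vertical bars 1 SD, cut at 0. The groups do not overlap for Grem1, Bmper, Fst, Inhba and Bmpr1a, and overlap for the other 5 genes.

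Follistatin and its relative gave less even values. Fst encodes follistatin, which binds activins nearly irreversibly and some BMPs more weakly. It had 141, 63 and 317 counts in KO-labelled replicates 4, 5 and 6, and 37, 0 and 0 counts in WT replicates 4, 5 and 6. The groups did not overlap, at 27.0 CPM in the lowest KO-labelled library and 22.5 CPM in the highest WT library, but the gap was small beside the spread. The log2 fold change was 3.0 with a 95% interval from -0.27 to 6.28. Fstl1 encodes a secreted glycoprotein of the follistatin family reported to bind BMP4. It stood at 28.9, 89.1 and 136 CPM in KO-labelled replicates 4, 5 and 6, and at 38.9, 38 and 27.8 CPM in WT replicates 4, 5 and 6. KO-labelled replicate 4 lay inside the WT range, so the groups overlapped, and the log2 fold change was 1.28 ± 0.64 (SE). Fst had the largest fitted biological coefficient of variation of the 10 genes, at 1.17. These are the 2 tested genes of a list of 9 follistatin-family and secreted activin antagonist genes, of which 6, Fstl3 among them, had no count in any library.

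Of 18 genes listed as secreted BMP antagonists and modulators, Fstl1 included, 10 had no count in any library, among them Nog, Sost, Chrdl1 and Chrdl2. Chrd, which encodes chordin, had counts in 2 libraries, too few to pass the filter. All 7 tested genes of the list had an estimate above 0, against 49% of all tested genes. The median log2 fold change was 1.28, unchanged when Grem1 is set at its floor, against -0.02 over all tested genes. That median is the estimate of Fstl1. Grem1, Bmper and Fstl1 were taken with these values known, so nothing is read from the list. Beside Grem1 and Bmper, DESeq2 (but not edgeR) called Htra1 and Crim1. Htra1, a secreted serine protease that can inhibit signalling by this ligand family, was the most abundant, at 1509, 1344 and 1542 CPM in KO-labelled and 717, 975 and 841 CPM in WT libraries. Its log2 fold change was 0.79 ± 0.18 (SE; edgeR adjusted p = 0.0721, DESeq2 5.98e-05). Crim1, a transmembrane protein with chordin-like repeats, stood at 511 ± 56.5 CPM in KO-labelled and 312 ± 32.9 CPM in WT libraries (SD over 3 libraries each), with an edgeR adjusted p of 0.387 and a DESeq2 adjusted p of 0.0147. The groups did not overlap for either gene. Twsg1 (twisted gastrulation) had 140, 22 and 296 counts in KO-labelled and 17, 14 and 56 counts in WT libraries, which overlap.

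Inhba differed most among the ligand genes. Inhba (ENSMUSG00000041324, chromosome 13, 16011851 to 16031621) encodes the inhibin beta A subunit, a pair of which forms activin A. It had 239, 274 and 417 counts in KO-labelled replicates 4, 5 and 6, and 0, 17 and 0 counts in WT replicates 4, 5 and 6. All KO-labelled libraries stood well above WT replicate 5, the only WT library with a count. Pooled over the groups, the level was 36.2-fold higher in KO-labelled libraries, with a counting interval from 22.5 to 62.4 that leaves out replicate spread. The fitted log2 fold change was 5.24 with a 95% interval from 2.84 to 7.65. Inhba levels were close to each other in the KO-labelled libraries, at 93.2, 117 and 129 CPM.

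The other activin and inhibin subunits were low or not seen. Inhbb, the beta B subunit, had 36, 143 and 40 counts in KO-labelled and 21, 56 and 0 counts in WT libraries, which overlap. Inha, whose alpha subunit turns activin subunits into inhibins, and Inhbc and Inhbe had no count in any library. Per length, in KO-labelled libraries, Inhba stood at 17.7 ± 2.88 RPKM and its antagonist Fst at 13.1 ± 7.84 RPKM (SD, n = 3). The ratio of Inhba to Fst was 1.22, 3.12 and 0.945 in KO-labelled replicates 4, 5 and 6, and no ratio can be given for WT replicates 5 and 6, where Fst had no count.

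Bmp4, a ligand bound by gremlin 1, did not pass the test. It stood at 273, 149 and 273 CPM in KO-labelled replicates 4, 5 and 6, and at 170, 164 and 167 CPM in WT replicates 4, 5 and 6. KO-labelled replicate 5 lay below every WT library, so the groups overlapped. The 95% interval of its log2 fold change, 0.47, ran from -0.20 to 1.15. Bmp4 was even among WT libraries, with an SD of 2.64 CPM, against 71.3 CPM among KO-labelled libraries.

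Of 23 listed BMP and GDF ligand genes, 16 had no count in any library, Bmp5, Bmp6 and Bmp7 among them, and 4 were tested. None was called by edgeR, against 0.402% of tested genes. Gdf6 alone had an unadjusted p under 0.05, against 6.49%, and was the only one DESeq2 called, against 2.5%. All 4 estimates, that of Bmp4 among them, were above 0, against 49% of all tested genes, with a median log2 fold change of 1.21. Gdf6 (ENSMUSG00000051279, chromosome 4, 9844372 to 9862345) encodes growth differentiation factor 6, also called BMP13, a ligand best known from joint and eye development. It stood at 142, 134 and 116 CPM in KO-labelled and at 50.5, 36.0 and 15.0 CPM in WT libraries. The groups did not overlap, and its log2 fold change was 1.95 ± 0.53 (SE; edgeR adjusted p = 0.234, DESeq2 0.00277). Bmp1, a metalloprotease that cleaves chordin and is no ligand, had a log2 fold change of 0.31 ± 1.04 (SE). Gdf11 had 46, 0 and 183 counts in KO-labelled and 15, 0 and 0 counts in WT libraries.

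No receptor gene passed the test. Bmpr1a encodes the type I receptor ALK3, the main receptor for BMP2 and BMP4. It had 135, 129 and 245 counts in KO-labelled replicates 4, 5 and 6, and 0, 98 and 0 counts in WT replicates 4, 5 and 6. The groups did not overlap, but WT replicate 5, at 49.0 CPM, was close to the lowest KO-labelled library, at 52.7 CPM. At the pooled WT level, 30 and 31.5 counts would stand in WT replicates 4 and 6, where none was found. The log2 fold change of 1.90 had a 95% interval from -1.17 to 4.96.

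Acvr1 encodes the type I receptor ALK2, which serves BMPs and binds activin A without the usual signal. It stood at 81.9, 17.1 and 32.3 CPM in KO-labelled replicates 4, 5 and 6, and at 22.5, 25.5 and 35.3 CPM in WT replicates 4, 5 and 6. The higher KO-labelled mean came from replicate 4, and the groups overlapped; its log2 estimate was 0.66 ± 0.90 (SE), and -0.16 without KO-labelled replicate 4. The activin type I receptor gene Acvr1b had 0, 68 and 51 counts in KO-labelled and 12, 17 and 0 counts in WT libraries. Acvr1c, Bmpr1b and Acvrl1 had no count in any library. Among 4 tested type I receptor genes, with Tgfbr1 of the TGF-beta receptor, the median log2 fold change was 1.16. None was called by edgeR or DESeq2, against 0.402% and 2.5% of their tested genes. None had an unadjusted p under 0.05, against 6.49% of tested genes, and nothing is read from the lack of calls.

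Bmpr2 encodes the type II receptor specific to BMPs, and Acvr2a a type II receptor shared by activins and BMPs. Bmpr2 had 224, 1 and 338 counts in KO-labelled replicates 4, 5 and 6, and 85, 108 and 33 counts in WT replicates 4, 5 and 6. The single count in KO-labelled replicate 5 compares with 162 counts that the pooled KO level would give there. The groups overlapped, and the log2 fold change of 0.63 ± 1.04 (SE) was -0.53 with limma-voom and -0.035 with the replicate number as a block. Acvr2a stood at 46.0, 39 and 32 CPM in KO-labelled replicates 4, 5 and 6, and at 23.7, 21.0 and 37.6 CPM in WT replicates 4, 5 and 6. WT replicate 6 lay within the KO-labelled range, and the log2 fold change was 0.51 ± 0.91 (SE). None of the 3 tested type II receptor genes was called by edgeR or DESeq2, against 0.402% and 2.5% of their tested genes. None had an unadjusted p under 0.05, against 6.49%, and nothing is read from the lack of calls. The other tested type II receptor gene, Tgfbr2, had an estimate of -1.17 ± 2.55 (SE). Exons of other genes cover 7.84% of the exons of Acvr2a, 4.57% of Bmpr1a, 3.96% of Bmp4 and 2.51% of Fst. Beyond the 10 genes, they cover 23.2% of the exons of Ccn2, 47.3% of Fstl3 and 46.7% of Bmp5. Without the strand setting, not given in the sources used here, reads in those stretches cannot be told apart. Of 9 co-receptor and decoy receptor genes 5 had no count in any library, and the lone tested one was Neo1, at 166 ± 64.9 CPM in KO-labelled and 177 ± 114 CPM in WT libraries (SD, n = 3 per group).

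Downstream of the receptors, the BMP target list had a median below 0 and the activin and TGF-beta target list a median above 0. Many estimates on both lists had a standard error larger than themselves, and no direction of signalling is read from the medians. Smad7, at -0.69 ± 2.22 (SE), is on both lists. Of 18 listed BMP target genes, 7 were tested, 6 with an estimate below 0, while 49% of all tested genes had one above 0. The median log2 fold change was -0.66, the estimate of Hes1. None of the 7 was called by edgeR, against 0.402% of tested genes. 1 had an unadjusted p under 0.05, Id1, against 3.79% of tested genes lower at that level. Id1 (ENSMUSG00000042745, chromosome 2, 152736251 to 152737410) encodes an inhibitor of basic helix-loop-helix factors and is a direct target of BMP SMADs. It stood at 74.5, 87.4 and 174 CPM in KO-labelled replicates 4, 5 and 6, and at 237, 219 and 175 CPM in WT replicates 4, 5 and 6. The groups only just failed to overlap, and its log2 fold change was -0.90 ± 0.38 (SE; edgeR adjusted p = 0.634, DESeq2 0.236).

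Id3, a second inhibitor of the same class, had enough counts in too few libraries to pass the filter and was named after its values were seen. It had 1, 3 and 1 counts in KO-labelled replicates 4, 5 and 6, and 105, 107 and 0 counts in WT replicates 4, 5 and 6. WT replicate 6, without a count, lay below the KO-labelled libraries, so the groups overlapped. Its pooled level was 64.1-fold higher in WT (counting interval 27.0 to 199), and DESeq2, which kept it, called it lower in KO-labelled libraries (adjusted p = 0.0231). Id2 overlapped between the groups, at 0, 30 and 106 counts in KO-labelled and 26, 25 and 17 counts in WT libraries. The inhibitory SMAD gene Smad6, also a BMP target, had 77, 0 and 0 counts in KO-labelled and 27, 26 and 46 counts in WT libraries. Gata6 had a log2 fold change of -0.34 ± 0.43 (SE), Hes1 of -0.66 ± 1.89 and Runx2 of -0.18 ± 1.47. Bambi, Msx1, Msx2, Hey1 and Smad9 had no count in any library.

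The activin and TGF-beta target list held 15 genes, of which 10 were tested, Fst among them. 9 of the 10 had an estimate above 0, against 49% of all tested genes, and the median log2 fold change was 0.64. Groups did not overlap, with KO-labelled libraries higher, for 5 of the 10, Fst among them, against 6.94% of all tested genes. Fst was taken with its values known, and nothing is read from these shares. Ltbp1, which encodes a latent TGF-beta binding protein, stood at 472, 372 and 434 CPM in KO-labelled and at 254, 248 and 131 CPM in WT libraries. Ccn2, the connective tissue growth factor gene, stood at 470, 390 and 528 CPM in KO-labelled and at 221, 324 and 147 CPM in WT libraries. Neither gene's groups overlapped. Their log2 fold changes were 1.02 ± 0.29 for Ltbp1 and 1.0 ± 0.29 for Ccn2 (SE; edgeR adjusted p = 0.269 and 0.292, DESeq2 0.00551 and 0.00859). Lmcd1 was at 0.92 ± 0.43, Skil, a SMAD corepressor gene, at 0.35 ± 0.54, and Bhlhe40 at 0.11 ± 0.30. These targets also answer to other pathways, and no readout of SMAD phosphorylation is part of these data.

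**Figure D3:**
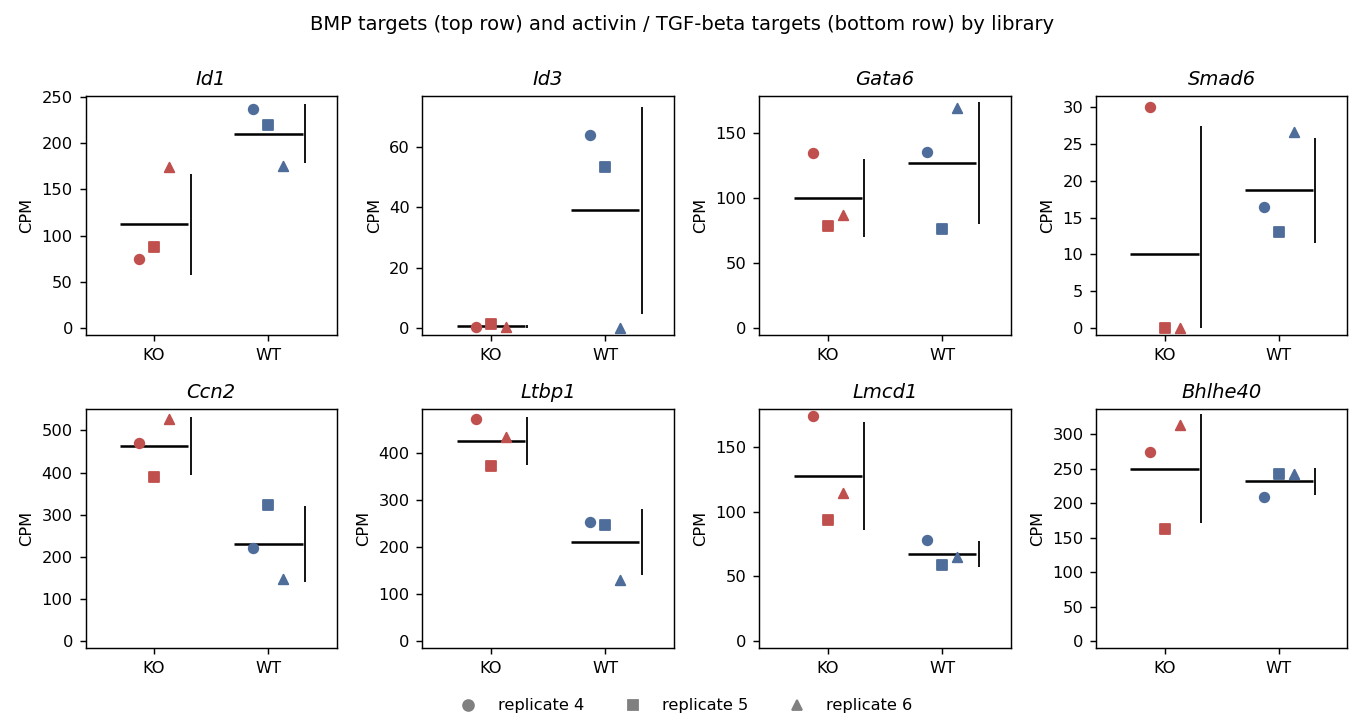
Level of 4 BMP target genes (top) and 4 activin or TGF-beta target genes (bottom) in CPM (linear axis) in libraries labelled KO (left, red) and WT (right, blue); symbols are replicates, horizontal bars means and vertical bars 1 SD, cut at 0. Id1 runs from 74.5 to 174 CPM in KO-labelled libraries and from 175 to 237 CPM in WT, and Ccn2 from 390 to 528 CPM in KO-labelled libraries and from 147 to 324 CPM in WT. Id3 and Smad6 were chosen after their values were seen. The tested BMP targets Hes1, Runx2, Smad7 and Id2, the last with an estimate above 0, are not drawn.

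Of 15 listed SMADs and partners 13 were tested. 7 had an estimate above 0, against 49% of all tested genes, and 6 below, and the median was 0.27. None was called by edgeR, against 0.402% of tested genes, or by DESeq2, against 2.5%. Fkbp1a alone had an unadjusted p under 0.05, against 6.49% of tested genes. The counts lie near these shares, and nothing about the SMAD genes is read from them. Fkbp1a encodes FKBP12, which binds type I receptors and holds them inactive. It stood at 168, 153 and 118 CPM in KO-labelled and at 63.8, 83.9 and 75.2 CPM in WT libraries, without overlap (log2 fold change 0.98 ± 0.39, SE; edgeR adjusted p = 0.58, DESeq2 0.105). Smurf1, a ubiquitin ligase for BMP SMADs, was at 0.73 ± 0.59 and the activin SMAD gene Smad2 at -0.14 ± 0.58 (log2 fold change and SE). Smad1 had 23 counts in WT replicate 5 and 0 elsewhere, and Smad5, the other main BMP SMAD gene, had 23, 69 and 136 counts in KO-labelled and 44, 62 and 44 counts in WT libraries.

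Leaving out 1 library showed which values rest on single libraries. With WT replicate 4 left out Grem1 was still called (adjusted p = 0.034), and with any other library left out its adjusted p ran from 0.0594 to 0.241; limma-voom, with all libraries, gave 0.156. Bmper kept its call without KO-labelled replicate 5 and without WT replicate 4, and lost it without KO-labelled replicates 4 (0.0614) or 6 (0.0781) and without WT replicates 5 (0.154) or 6 (0.107). Its log2 fold change ran from 1.64 to 2.15. Inhba was called without WT replicate 5 (adjusted p = 0.00775), where WT then has no count, and Fst without WT replicate 4 (0.0468), which held the only Fst counts of WT. The fitted log2 fold change of Inhba ran from 4.68 to 11.03. That of Bmpr1a ran from 1.32 to 2.01, apart from 10.14 without WT replicate 5, its only WT library with counts. Bmp4 ran from 0.34 without KO-labelled replicate 6 to 0.72 without KO-labelled replicate 5. Fstl1 ran from 0.75 to 1.70, Acvr2a from 0.35 to 0.80 and Bmpr2 from 0.077 to 1.22, the highest without KO-labelled replicate 5, where it had 1 count.

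**Figure D4:**
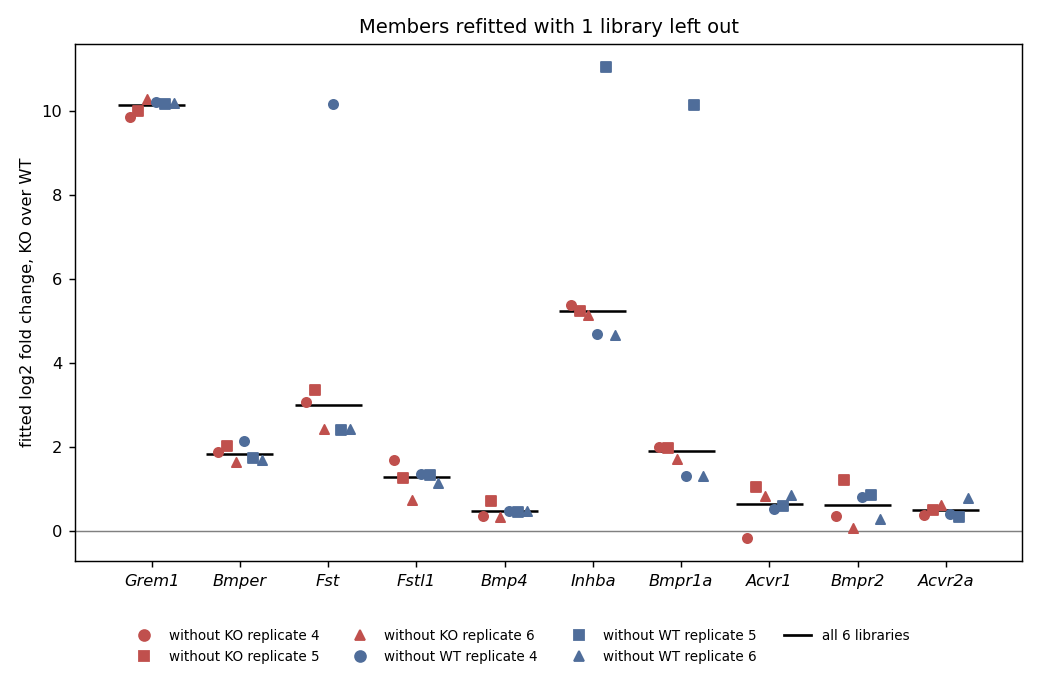
Fitted log2 fold change of KO-labelled over WT libraries (y axis) for each of the 10 genes with 1 library left out (symbols, coloured by the group of the library left out) and with all 6 (black bars). Bmper and Bmp4 stay close to their bars, Acvr1 falls to -0.16 without KO-labelled replicate 4, and the points near 10 are fits in which WT has no count, where the size of the fitted value carries no meaning.

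Genes with the most similar profile were sought among tested genes, with Gm, Rik and clone-type names left out. The measure was the Euclidean distance between centred log2 CPM values over the 6 libraries, a description of 6 points that share 2 groups. Those closest to Grem1 were B3gat3, Shisa4, Def8, Abt1 and Masp1, at distances from 1.01 to 2.02; 4 of them had no WT count, and Abt1 had 1 count in each of 2 WT libraries. Closest to Bmper were Ulbp1, Gpnmb, Mtmr12, Plxdc2 and Hist1h2be, at smaller distances from 0.316 to 0.861, of which Gpnmb and Plxdc2 passed edgeR's threshold. Ulbp1 had 358, 314 and 685 counts in KO-labelled and 117, 85 and 65 counts in WT libraries. Closest to Inhba were Naa10, Nrm, Zc2hc1a, Ssbp2 and Mal2, at 2.20 to 2.80.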

How the data were processed

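RNA-seq libraries of ID8 cells, 3 labelled KO and 3 labelled WT, were used. Reads had been processed with HISAT2 2.0.5, fastp and featureCounts 1.5.0-p3 on mm10, per the submitters' processing notes, with options and strand mode not given in the sources used here. Whole-number raw counts per Ensembl gene were deposited by the authors. Symbols, coordinates and exon lengths came from GENCODE M21 (53360 of 53465 IDs matched), and columns were matched through the labels.

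The test was that of edgeR 4.0.16 (R 4.3.3). The filter was filterByExpr (minimum count 10), which left 8200 genes, and scaling was TMM. A robust quasi-likelihood fit with group as its only term was tested two-sided, with Benjamini-Hochberg adjustment and a threshold of 0.05. The scripts were tested on simulated data. CPM use TMM-scaled library sizes, in which 1 count was worth 0.310 to 0.608 CPM, and intervals are at 95%. Counting intervals and floors of 3 counts cover counting error only, because amplified reads are not independent molecules.

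The members and gene lists were chosen with earlier results of these data known. Named genes were the members, each list's genes past the threshold, and up to 4 further tested genes per list with the highest mean CPM. Nat10 and the 5 profiles nearest to Grem1, Bmper and Inhba were named too, with Gm, Rik and clone-type names left out. Id2, Id3, Smad5, Smad6, Smad7 and genes absent or removed by the filter were named after their values were seen. A gene that this rule would name is not reported here. Alternatives were DESeq2 1.42.0, limma-voom (limma 3.58.1), other scalings and filters, thinning to 1687466 counts, the replicate number as a block, and leaving out each library.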

Additional observations from a re-analysis of the deposited data

How the results depend on the processing

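With other settings 234 genes were called by DESeq2 and 91 without a filter on low counts, against 33, and 6 to 29 with 1 library left out. Of the 10 members, 2 were called by edgeR, 1 by limma-voom (Bmper) and 1 under the stricter filter, which removed Grem1, Inhba, Fst and Bmpr1a; with 1 library left out 0 to 3 were called. Same-numbered libraries did not deviate together (r from -0.017 to -0.0026), and with the replicate number as a block 38 genes and 2 members were called, Inhba (adjusted p = 0.0292) in place of Grem1 (0.0595). The members were taken with their direction known, and the other settings refit the same libraries, so nothing is read from the count of signs. Of 136 member estimates under other settings 133 stayed above 0. The exceptions were Bmpr2 at -0.53 (limma-voom) and -0.035 (replicate block), and Acvr1 at -0.16 without KO replicate 4.

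Other log2 fold changes that turned sign were uncalled. With limma-voom Nat10 was 0.020, Neo1 0.012 and Tgfbr1 -1.16; with library totals Nat10 was 0.027 and Neo1 0.023; with the replicate block Neo1 was 0.074 and Tgfbr1 -1.09. With 1 library left out, the values ran from -0.16 to 1.04 for Acvr1, -0.40 to 1.08 for Bmp1, -0.027 to 2.18 for Inhbb, -0.35 to 0.35 for Nat10, -0.44 to 0.54 for Neo1, -1.20 to 0.24 for Runx2, -0.019 to 0.63 for Skil, -0.37 to 0.22 for Smad2, -1.47 to 1.42 for Tgfbr1 and -0.089 to 0.35 for Bhlhe40. The cause was not tested. By counting error alone, no count in WT allows up to 0.558 CPM there, but 19.3% of tested genes had a 0 in at least 1 WT library, Bmpr1a beside 49.0 CPM in another, so the true limit may be higher.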
